A study of Mus musculus with 8 samples.

Results

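Oligodendrocyte precursor cells (OPCs) of the postnatal mouse frontal cortex were described in a sort for a dopamine D1 receptor reporter. A cell was taken as an OPC when it had a count above 0 for Pdgfra, a count above 0 for at least 2 of the 4 genes Cspg4, Sox10, C1ql1 and Lhfpl3, and a count of 0 for Aqp4, Enpp6, Bmp4, Mog, Top2a and Mki67. The cells were thus chosen by their measured counts of these 11 genes, whose levels in OPCs against other cells are a description and support nothing further. Of 11494 cells of the sort, 727 met the rule, among 22876 cells in the 8 libraries of the series.

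OPCs are the glial progenitors that spread through the grey and white matter, divide, and give rise to oligodendrocytes, the myelin-forming cells of the central nervous system. They depend on platelet-derived growth factor, which they sense through the receptor Pdgfra, and they carry the chondroitin sulfate proteoglycan NG2, the product of Cspg4. Olig1, Olig2 and Sox10 are transcription factors of the whole oligodendrocyte lineage. Gpr17, Enpp6 and Bmp4 mark cells that leave the precursor state, and Mbp and Mog belong to myelin. In the cortex successive waves of OPCs come from ventral and dorsal progenitors, and OPCs receive synapses from neurons through glutamate and GABA receptors.

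Control mice carried Foxp2 flox/flox alleles and the Drd1a-tdTomato transgene, a bacterial artificial chromosome (BAC) reporter for the D1 receptor. Conditional knockout (cKO) littermates carried Emx1-Cre in addition, which recombines in the dorsal forebrain lineage, so that cells of ventral origin keep the floxed alleles. All animals were 7 days old (P7), and frontal isocortex was dissociated and sorted for tdTomato. Each genotype had 2 libraries. Control 1 and cKO 1, both female, were prepared on 1 day (batch 1), and control 2, female, and cKO 2, male, on another (batch 2). A second sort of the series, for a golli-τ-eGFP transgene, is used only at the end. The series calls the libraries of a genotype independent replicates and describes the sorted cells as neurons. The labels do not say whether a library came from 1 animal, so p-values measure the spread between these libraries.

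The sorted libraries held 2395 to 3081 cells in batch 2 and 2812 to 3206 in batch 1, where the labels name a target of 1000 cells a sample. Where 4 values follow each other below, they stand in the order control 1, control 2, cKO 1, cKO 2. OPCs summed to 2098971, 1075653, 1582927 and 1227762 counts. The median OPC held 6671, 9827, 6711.5 and 5518 counts and 2275, 2971, 2316 and 2428 detected genes. Libraries of the 2 batches also differed in the form of their counts. Among OPCs, values of 2 were 1.78 and 1.65 times as frequent as values of 1 in control 1 and cKO 1, and 0.711 and 0.272 times in control 2 and cKO 2. The deposited counts may therefore not be plain numbers of molecules. Levels, thinned shares, intervals and limits for a count of 0 are those of the counts as deposited, and a comparison between batches also compares counts of different form. Of 11391 barcodes, 97 occurred in several libraries. No OPC barcode occurred among the OPCs of a second library, and 8 OPCs shared a barcode with some cell of another library. Control 1 stood apart in immediate early genes, which cell dissociation is known to raise, with a summed level of 2283 CPM in OPCs (CPM, counts scaled to the summed count of the cells in question) against 401 to 820 CPM in the other 3 libraries. Control 2 stood apart in haemoglobin, with a summed 95.8 CPM in OPCs against 1.43 to 22.0 CPM elsewhere. The Y-linked genes were counted only in cKO 2, the library labelled male.

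The rule drew a narrow line through a wider group of cells. In all, 2181 cells had Pdgfra and at least 2 of the 4 other markers. Of these, 694 missed the rule only because of a count for Aqp4, the astrocyte water channel, 278 only because of the division genes Top2a or Mki67, and 22 only because of Enpp6 or Bmp4. The remaining 460 missed several conditions, or Mog. A further 115 cells met every condition but had only 1 of the 4 markers, and 114 met all but Pdgfra. The share of the 2181 cells lost to Aqp4 alone was 16.3%, 38.8%, 25.1% and 40.1% by library, and was thus higher in both libraries of batch 2.

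**Figure D1:**
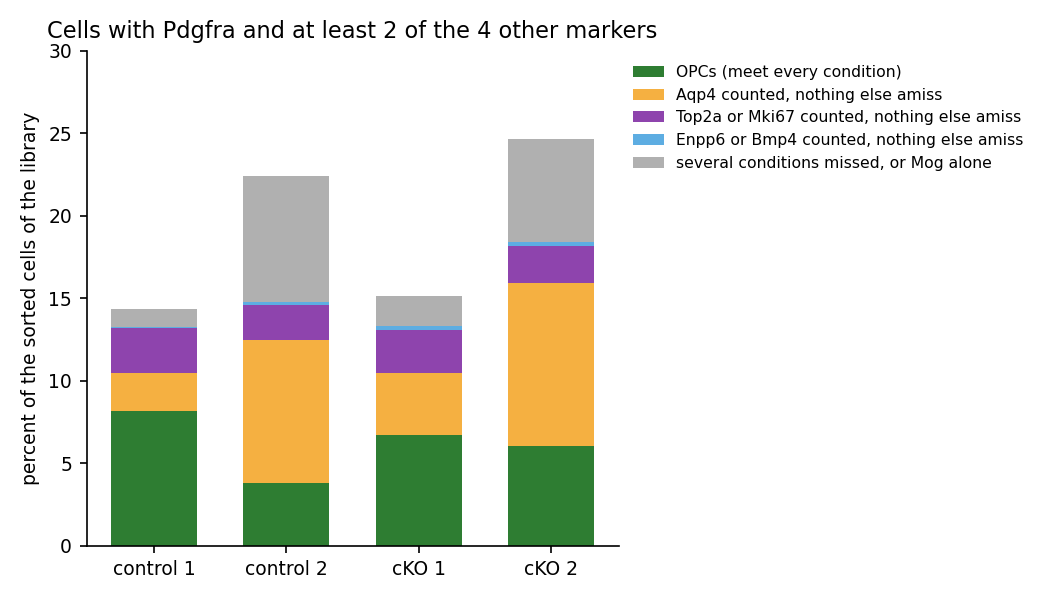
Cells with a count for Pdgfra and for at least 2 of Cspg4, Sox10, C1ql1 and Lhfpl3, as a percent of all sorted cells of each library (y axis), stacked by whether they met the rule or which condition they missed. OPCs (green) made up 3.80% to 8.14% of the cells, and the cells that missed only by an Aqp4 count (orange) formed the larger class in control 2 and cKO 2.

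Cells just outside the rule differed from those just inside. Over the 4 libraries together, Pdgfra was at 635 CPM in OPCs with exactly 2 of the 4 markers and at 1128 CPM in those with all 4, against 188 CPM in the cells with 1 marker. Olig1, which the rule did not use, was at 760 CPM in OPCs with 2 markers, 1655 CPM in those with 4 and 238 CPM in cells with 1. Stmn2, a neuronal microtubule regulator, ran the other way, from 1047 CPM with 4 markers through 1590 CPM with 2 to 2248 CPM with 1. OPCs with exactly 2 markers made up 16.1%, 26.4%, 17.0% and 20.3% of the OPCs by library, more in batch 2. The pooled levels by marker number therefore also mix the batches and were not compared within libraries. The cells lost only to Aqp4 had 577 CPM of Pdgfra and 1550 CPM of the glutamate transporter Slc1a3, against 975 and 471 CPM in OPCs. They came mostly from batch 2, but the order held within each library. Pdgfra was at 1011, 443, 802 and 492 CPM in them and at 1165, 604, 1185 and 703 CPM in OPCs. Slc1a3 was at 1374, 1379, 1677 and 1719 CPM against 412, 456, 438 and 626 CPM. They were also deeper, with a median of 10137 counts against 6800. Cells lost only to Top2a or Mki67 held 1076 CPM of Pdgfra and 1371 CPM of Olig1, close to the OPC levels of 975 and 1452 CPM, and 806 CPM of the chromatin protein gene Hmgb2 against 56.5 CPM.

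Genes that the rule left aside also marked these cells, which is given as a description. Olig1 had a count in 97.2% of OPCs, Olig2 in 91.7% and the receptor phosphatase Ptprz1 in 98.8%. The median OPC had 7 counts of Pdgfra (quartiles 4 and 11), 5 of C1ql1 and 3 of Lhfpl3. Cspg4 was counted in 59.7% of OPCs and Sox10 in 80.7%. Of 30 OPC identity genes outside the rule, 24 were higher in OPCs than in the other sorted cells in every library. Olig1 was at 1766, 866, 1715 and 1091 CPM in the OPCs of the 4 libraries, and at 308, 272, 343 and 372 CPM in the other cells. Ptprz1 did not separate the cells in that way: at 1578 CPM in cKO 2 OPCs it lay below the 2068 CPM of the other cells there. Counts of marker genes of other brain cell types were present to unequal extents. Whether they were the OPCs' own or came from other cells was not tested. The 15 neuron markers summed to 2455, 4572, 2564 and 3269 CPM in OPCs, and the 13 astrocyte markers, with Aqp4 at 0 by the rule, to 1156, 1429, 1217 and 1921 CPM. The 9 microglial genes summed to 4.76 to 13.3 CPM and the 8 fibroblast genes to 1.89 to 26.1 CPM in OPCs, and none of these 17 genes passed the filter on low counts.

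The 15 genes with the highest OPC to other-cell ratio, taken in the library where each ratio was lowest, had minimum ratios from 3.41 to 5.58. Rasl11a, a small GTPase of the Ras family, led them. It stood at 439, 112, 209 and 125 CPM, against 17.8 to 31.7 CPM in other cells. Matn4, a matrilin of the extracellular matrix, was at 234, 93.9, 160 and 111 CPM, against 17.9 to 23.2 CPM. Others were the adhesion protein Megf11, the myelin membrane protein gene Pllp, the sulfatide-making enzyme Gal3st1, the neurexin ligand Nxph1, the transcription factors Dmrtb1 and Npas1, and the secreted protein Smoc1. In each of the 15 the OPC level was higher in both libraries of batch 1 than in both of batch 2.

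**Figure D2:**
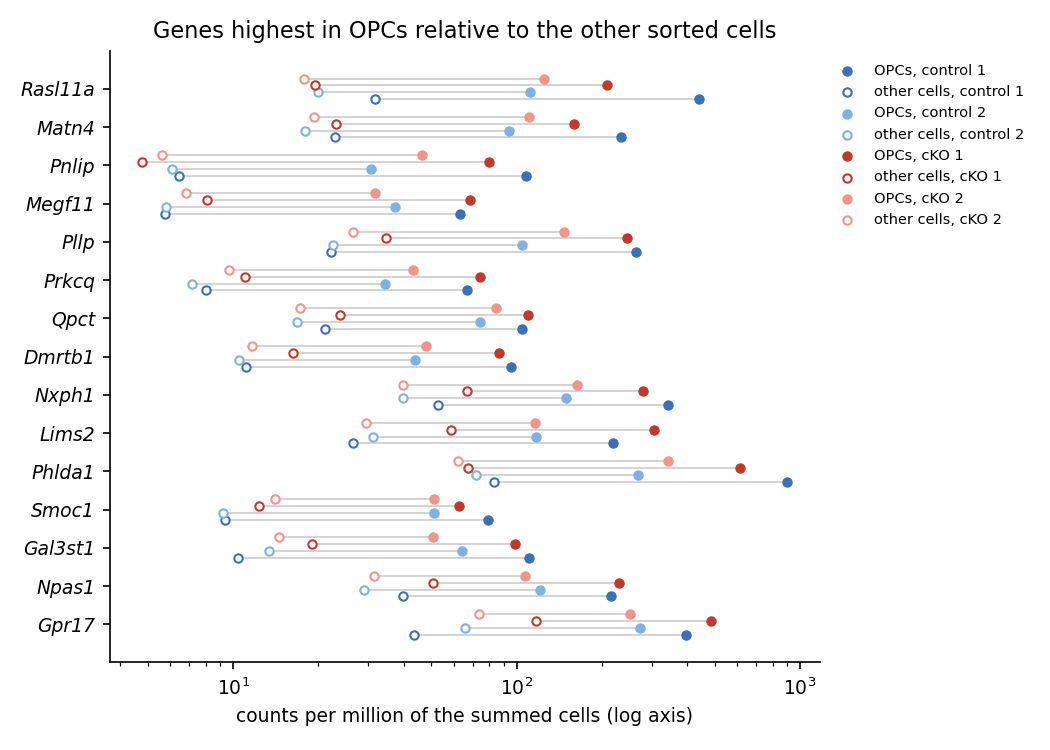
The 15 genes outside the rule with the highest ratio of OPC to other-cell level, in CPM on a log axis, with OPCs as filled and other sorted cells as open circles for each of the 4 libraries. Every filled circle lies to the right of its open partner, by 3.41-fold (Gpr17) or more, and for each gene the batch 1 libraries (dark colours) hold the 2 highest OPC levels.

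Myelin genes were low in OPCs. Gpr17, a receptor of cells on the way to differentiation, had a count in 76.2% of OPCs and stood at 396, 272, 486 and 251 CPM by library. Over the 4 libraries, 59 committed precursors, taken as cells with Sox10 and with Enpp6 or Bmp4 and without Aqp4, Mog, Top2a and Mki67, held 1982 CPM of Gpr17 against 368 CPM in OPCs. Their Mbp level was 4526 CPM against 36.6 CPM. The kinase gene Fyn was at 2057 against 245 CPM, and the deacetylase gene Sirt2 at 2514 against 178 CPM. Pdgfra ran the other way, at 221 CPM in committed precursors. Of 19 myelin genes in the table, 11 did not pass the filter in OPCs, and 4 had no count in any OPC, Mog among them by the rule.

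The share of OPCs among the sorted cells did not separate the genotypes. It was 8.14% in control 1 (exact Clopper-Pearson 95% interval 7.22% to 9.14%), 3.80% in control 2 (3.07% to 4.64%), 6.69% in cKO 1 (5.79% to 7.67%) and 6.07% in cKO 2 (5.25% to 6.97%). These intervals cover counting error only. The means were 5.97% ± 3.07 for control and 6.38% ± 0.436 for cKO (SD, n = 2 libraries each), and a two-sided exact permutation test gave p = 1, where 2 against 2 libraries cannot go below 0.33. Within batch 1 the cKO share was 1.46 percentage points lower, and within batch 2 it was 2.27 points higher. Control 2 decided the sign: without it the cKO share was 1.76 points lower. When cells with Aqp4 were let in, the shares were 10.5%, 12.5%, 10.5% and 15.9%, and the groups still overlapped (p = 0.667, exact permutation). A share of sorted cells depends on the reporter gate as well as on the tissue, and these cannot be told apart here.

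Top2a or Mki67 was counted in many cells of the lineage in this sort. Among cells that met the rule or missed it only by Top2a or Mki67, the dividing share was 25.0% in control 1 (87 of 348), 35.5% in control 2 (50 of 141), 28.0% in cKO 1 (73 of 261) and 26.7% in cKO 2 (68 of 255). Both cKO values lay between the controls, and the difference of the means was -2.91 percentage points (30.2% ± 7.40 and 27.3% ± 0.921, SD, n = 2; exact permutation p = 1). It was 2.97 points within batch 1 and -8.79 points within batch 2, and 2.32 points without control 2. Control 2 OPCs were the deepest. With every cell thinned to 2000 counts the dividing shares were 17.0%, 22.8%, 20.3% and 14.3%. The share with Enpp6 or Bmp4, counted likewise, was 0.760% in control 1 (2 cells), 5.21% in control 2 (5 cells), 3.59% in cKO 1 (7 cells) and 4.10% in cKO 2 (8 cells), with overlap of the groups (difference 0.862 points, exact permutation p = 1). Without control 1 that difference was -1.36 points.

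To find genes that differed between cKO and control OPCs, counts were summed over the OPCs of each library. None of 10391 genes tested was called (0% by edgeR's quasi-likelihood test at an adjusted p of 0.05), 116 had an unadjusted p under 0.05, and DESeq2 called 1 of 14734 (0.00679%). That gene, mt-Atp8, was at 235 CPM in cKO 2 and had no count in the OPCs of the other 3 libraries. Since the labels pair the libraries by preparation day, a fit with batch as a block stands beside this one. It called 16 genes (0.154%), 9 higher and 7 lower in cKO. The block fit has hardly more libraries than terms, so its p-values, also those for batch, rest largely on spread shared across genes. In CPM, both cKO libraries lay above both controls for 790 genes (7.6%) and below them for 1320 (12.7%).

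Foxp2, the floxed gene, was low in OPCs and its groups overlapped. The OPC levels were 38.1, 48.3, 45.5 and 27.7 CPM (means 43.2 ± 7.24 and 36.6 ± 12.6 CPM, SD, n = 2). By edgeR this was -0.20 on the log2 scale (SE 0.33, adjusted p = 1.00), and it was 0.061 without control 2, -0.64 with cells thinned to 2000 counts and -0.51 without the condition on Aqp4. With cells thinned to 2000 counts, 6.13%, 7.69%, 6.95% and 6.42% of OPCs had a Foxp2 count, against 3.66%, 6.66%, 1.87% and 1.44% of astrocytes. The counts come from 3′ ends and the labels do not say which part of Foxp2 is deleted, so this level does not check the genotype. Emx1, whose promoter drives the Cre, was at 17.6, 35.3, 12.6 and 11.4 CPM, with each cKO value below each control value. Its log2 fold change of -1.07 (SE 0.48) had an edgeR adjusted p of 1.00, and was -0.43 without control 2 and -1.61 without control 1.

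The dopamine receptor entry of the table, written Drd there with no entry for Drd1, was lower in both cKO libraries. The controls had 46.7 and 51.1 CPM of Drd and the cKO libraries 20.2 and 10.6 CPM, without overlap. This is a log2 fold change of -1.62 (SE 0.36). By edgeR the adjusted p was 1.00 without the block and 0.0022 with it. The other sorted cells went the same way, from 66.6 and 64.9 CPM of control down to 27.7 and 21.5 CPM of cKO. Only 30, 25, 13 and 10 OPCs had a count. After thinning, 4.60%, 5.49%, 1.6% and 1.07% of OPCs had one, against 4.37%, 11.3%, 2.59% and 1.88% of astrocytes. The OPC share lay below that of astrocytes in 3 of 4 libraries and close to it in control 1. Whether these few counts were the OPCs' own was not tested, and no expression of Drd by OPCs is read from them. A test of the genotype effect in OPCs against that in astrocytes gave a log2 difference of -0.61 (SE 0.34, edgeR adjusted p = 1.00).

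Sfxn1, a mitochondrial serine transporter gene, was abundant and lower in cKO. OPCs held 1375, 1276, 919 and 568 CPM of it. Both cKO libraries lay below both controls (log2 -0.82, SE 0.37; edgeR adjusted p = 1.00, and 0.000431 with the block, log2 -0.83). In the other sorted cells it was at 1455, 1297, 720 and 542 CPM. RefSeq for GRCm38.p6, the build in the submitters' processing notes, places Sfxn1 at chr13:54071656-54108346, the next protein-coding gene after Drd1 at chr13:54051183-54055658, with 15997 bases between them. OPCs of the golli-τ-eGFP sort, in a table counted separately, had 175, 189, 204 and 211 CPM, where the cKO values were the higher ones. These levels rest on 35, 57, 316 and 60 OPCs. The cause of the lower Sfxn1 in the tdTomato sort was not tested.

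**Figure D3:**
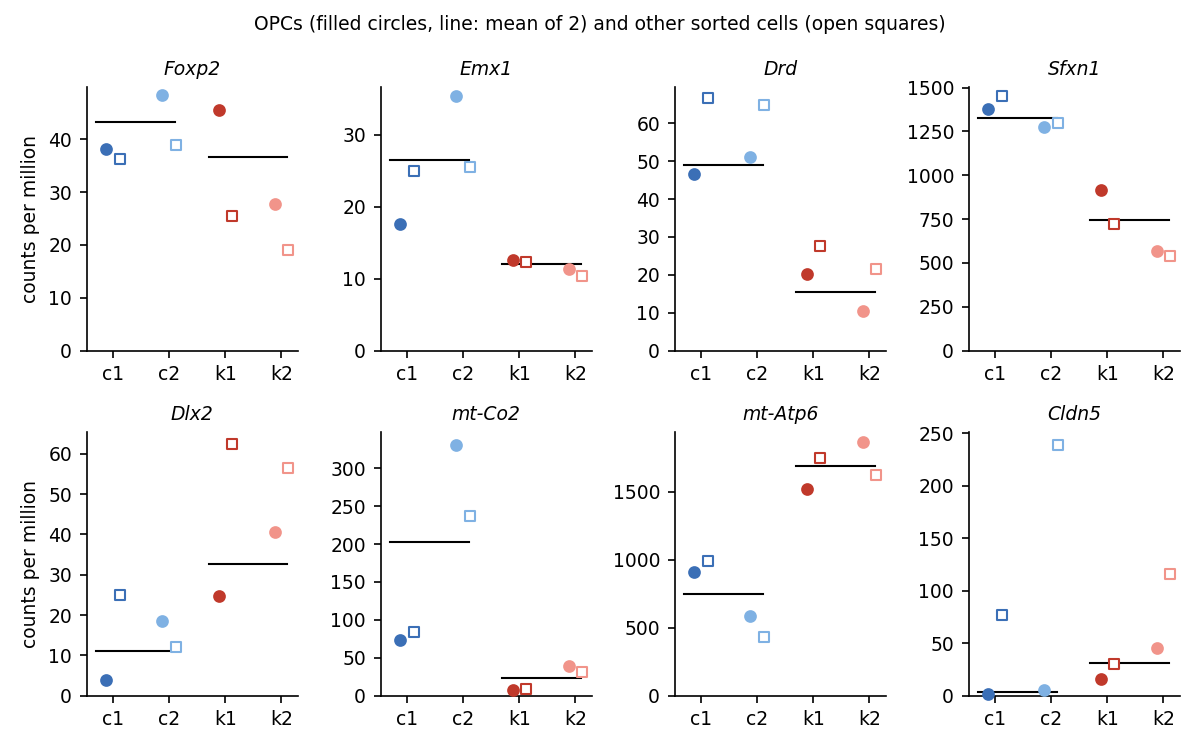
Level of 8 genes in OPCs (filled circles, with a line at the mean of the 2 libraries) and in the other sorted cells (open squares), in CPM, for control 1 and 2 (c1, c2) and cKO 1 and 2 (k1, k2). Drd, Sfxn1 and mt-Co2 were lower in both cKO libraries in OPCs and in the other cells alike, while Foxp2 in OPCs overlapped between the genotypes.

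Mitochondrial transcripts made up 4 of the 16 genes called with the block, and they went both ways. mt-Co2, a subunit of cytochrome c oxidase, was at 73.4, 331, 6.95 and 39.1 CPM (log2 -3.13, SE 0.77; with the block, adjusted p = 2.57e-28). It was -1.57 without control 2 and -4.99 without cKO 2. mt-Atp6, a subunit of the ATP synthase, was at 910, 588, 1521 and 1866 CPM (log2 1.25, SE 0.41; block adjusted p = 9.03e-11). mt-Co1 was higher and mt-Co3 lower in both cKO libraries. The genes mt-Atp6 and mt-Atp8 overlap, and mitochondrial genes have nuclear copies, so how the authors' counting divided reads among them is uncertain. The other sorted cells showed the same order for mt-Co2, at 84.1, 238, 8.85 and 31.7 CPM. The remaining 8 of 12 tested mitochondrial genes overlapped between the genotypes. Mitochondrial counts made up a median of 2.94%, 5.21%, 3.43% and 6.38% of an OPC's counts.

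Single cells carried several of the other calls. Cldn5, the tight junction gene of endothelium, was at 1.43, 5.58, 15.8 and 45.6 CPM (log2 3.40, SE 0.76; block adjusted p = 2.94e-06), but 1 cell held 96.0% of its counts in cKO 1 and 1 cell held 76.8% in cKO 2. The 13 endothelial and mural genes together summed to 8.58, 27.9, 45.5 and 145 CPM in OPCs. In cKO 1 a single cell held 93.2% of the counts of the neuropeptide gene Npy and 82.4% of those of the nitric oxide synthase gene Nos1. The synaptic gene Cplx3 was called lower in cKO (log2 -1.82), although 1 cell with 95.2% of its cKO 1 counts ran against that direction. Its log2 fold change was -4.73 without cKO 1. One cell held 66.1% of the cKO 2 counts of the lactate transporter gene Slc16a1 and 41.6% of those of the selenium carrier gene Sepp1. Srpk1, a splicing kinase gene counted in 67 to 236 OPCs a library, was at 760, 225, 1241 and 386 CPM, so that its groups overlapped while cKO was higher within each batch. Without cKO 1 its log2 fold change was -0.14, and that of Npy -0.35. Fos and Jun, immediate early genes, were called lower with the block, and without control 1 both were higher in cKO, by 0.61 and 0.40 on the log2 scale (adjusted p = 0.888 and 0.955). Fos was at 510 CPM there and at 30.7 to 58.1 CPM in the other 3 libraries.

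Genes of the dorsal and ventral forebrain were examined because OPCs arise from both sides of the forebrain. Dlx2, a homeobox gene of ventral progenitors and interneurons, was at 3.81, 18.6, 24.6 and 40.7 CPM, higher in both cKO libraries (log2 1.75, SE 0.63; edgeR adjusted p = 1.00, and 0.00741 with the block). The fold change was 0.75 without control 1 (adjusted p = 0.872) and 3.20 without control 2 (adjusted p = 1.04e-05). Dlx2 was counted in 1, 10, 14 and 13 OPCs, and a single cell held 40.0% of the counts in cKO 2. Pax6 and Sp8, from the same list of dorsal and ventral genes, lay above both controls in both cKO libraries too. Pax6 was at 19.0 and 21.2 CPM against 9.05 and 12.1 CPM. Over the 16 genes of dorsal and ventral origin tested, 3 were higher (18.8%, against 7.6% of all genes), 1 was lower (6.25%, Emx1, against 12.7%), and the median log2 fold change was 0.41 against -0.00 over all genes tested. Other sorted cells had more Dlx2 in cKO too, at 62.4 and 56.5 CPM against 25.1 and 12.1 CPM. Gad1 and Gad2, interneuron genes, overlapped between the genotypes. Between the batches, 5 of the 16 were called higher in batch 2 (31.25%, against 5.2% of all genes). These were Lhx2, Dlx1, Dlx2, Gad1 and Gad2, while 1, Gsx2, was lower.

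Genes of OPC identity mostly overlapped between the genotypes. Of 29 tested outside the rule, none was higher in both cKO libraries and 1 was lower (3.45%, Susd5), against 7.6% and 12.7% of all genes, with a median log2 fold change of 0.03. Olig2 was at 1021, 308, 744 and 406 CPM (log2 -0.16, with SE 0.46 and an edgeR adjusted p of 1.00), with both libraries of batch 1 above both of batch 2. Among 42 lineage transcription factors 2 were higher (Zfp536 and the deacetylase Hdac1) and 4 were lower (Id2, Klf9, Myc and Mycn), with a median of 0.03. Of 19 genes of committed and premyelinating cells only Fyn lay on 1 side, at 251 and 208 CPM in cKO against 259 and 252 CPM. Of 8 myelin genes tested Mbp was higher, at 44.9 and 41.5 CPM against 27.2 and 37.2 CPM, and Cntn2 was lower. In the 31 cell cycle genes other than Top2a and Mki67, 4 were higher (12.9%: Mcm2, Cdk6, Rb1, Hmgb2) and 1 was lower (Rrm1), with a median of 0.08. No gene of these 5 lists was called by edgeR with or without the block.

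Signalling lists were read the same way, against the 7.6% of all genes that were higher and the 12.7% that were lower. In the PDGF and FGF list the ligand gene Pdgfc and the effector Plcg1 were lower in both cKO libraries, 2 of 20 (10.0%), and the FGF receptor genes Fgfr1, Fgfr2 and Fgfr3 were not among them. Pdgfc was at 10.5 and 16.7 CPM for control and 6.32 and 3.26 CPM in cKO (log2 -1.41 with SE 0.62, adjusted p = 1.00 by edgeR), and its log2 fold change was -0.12 without the condition on Aqp4. Of 34 glutamate and GABA receptor genes 7 were lower (20.6%, against 12.7%) and 0 higher, with a median of -0.07. They included the NMDA receptor subunits Grin1 and Grin2b and the metabotropic receptor Grm5, which was at 214 and 305 CPM for control and 191 and 193 CPM in cKO. The most abundant of the list, the AMPA receptor gene Gria2, overlapped at 921, 681, 979 and 639 CPM. In the same libraries 3 of 15 neuron markers were lower (20.0%, Neurod6 and Neurod2 among them) and 0 higher, and the part of neuronal RNA in the receptor genes was not tested. Of 40 adhesion genes 7 were lower (17.5%, against 12.7%) and 0 higher, Ncam1 and Nrxn2 among them. In the 35 ion channel genes 4 were higher (11.4%, with Kcnj10, Kcnip2 and Cacnb3 among them) and 2 were lower.

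The cholesterol list had the largest share of lower genes among those with more than 20 members. Of 24 genes tested 6 were lower in both cKO libraries (25.0% against 12.7%), 0 were higher, and the median log2 fold change was -0.17. Among them were the enzyme genes Mvd, Idi1 and Hsd17b7 and Srebf2, the transcription factor that drives the pathway. The pathway's first synthase Hmgcs1 overlapped at 469, 741, 487 and 622 CPM. Notch genes split 2 higher (Dll3 and Jag1) to 3 lower of 20, Wnt genes 3 (Fzd1, Fzd9 and Wnt7a) to 2 of 20, BMP and TGF beta genes 3 to 4 of 22, guidance genes 2 to 5 of 37 and matrix genes 2 to 2 of 29. Axin1, a Wnt inhibitor, had the smallest p of the Wnt list, at 20.0 and 27.0 CPM for control and 9.48 and 9.77 CPM in cKO (log2 -1.23 with SE 0.46, adjusted p = 1.00 by edgeR), with -0.39 without the condition on Aqp4. None of the genes of these lists was called with the block.

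**Figure D4:**
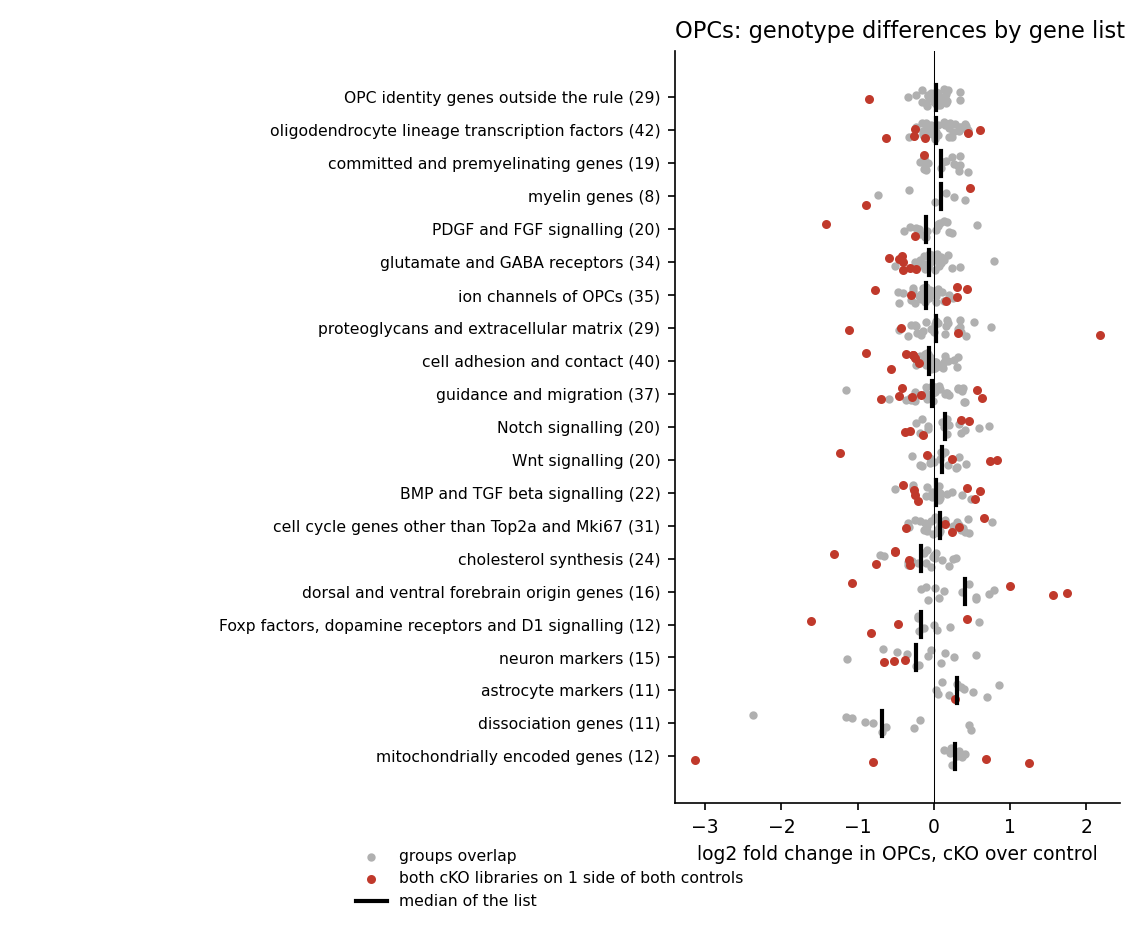
Log2 fold change of cKO over control OPCs (x axis) for every tested gene of 21 lists, with the number tested in brackets, red where both cKO libraries lay on 1 side of both controls, and a black bar at the median of the list. The medians of the OPC identity genes and of the lineage transcription factors are 0.03, and that of cholesterol synthesis is -0.17.

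The genes with the smallest p in the comparison of genotypes were mostly scarce. Besides Cldn5, Drd, mt-Co2 and Slc16a1, the first 10 were Lmo2, Igfbpl1, Mtfr1, Il34, Sept1 and Vta1. The ESCRT-associated gene Vta1 was the most abundant of these 6, at 27.2 and 24.2 CPM for control and 63.8 and 41.5 CPM in cKO (log2 1.06 with SE 0.31, adjusted p = 1.00 by edgeR). Mtfr1, a mitochondrial fission gene, was at 15.7 and 19.5 CPM for control and 4.42 and 3.26 CPM in cKO (log2 -2.12, SE 0.58). Il34 was at 0.953 and 1.86 CPM for control and 12.6 and 7.33 CPM in cKO. None of the 6 passed with the block, where the adjusted p of Lmo2 was 0.0881 and that of Igfbpl1 0.0843.

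Batch separated OPCs more than genotype did in the number of genes called. In the fit with both terms, where 16 genes were called for genotype, 826 genes (7.95%) differed between batch 2 and batch 1, 540 higher (5.2%) and 286 lower (2.75%) in batch 2. Reln, Ndnf, Gm6133, Rps29 and mt-Co2 had the smallest p by edgeR, with log2 values of 3.93, 4.53, -3.74, 1.86 and 2.45. Ribosomal protein genes besides Rps29, such as Rpl39, Rpl41 and Rps12, also stood near the top by p. They were not examined as a list. OPC identity genes were lower in batch 2: of 29 tested 13 were called lower (44.8%) and 0 higher, with a median log2 of -0.57 against -0.02 over all genes. Gpr17 and Lims2 of this list also stand in the list of committed and premyelinating genes, and Lims2 was among the 13. Olig2 differed by -1.08 (adjusted p = 2.51e-07) and Olig1 by -0.62 (adjusted p = 0.00268). The condition on Aqp4 removed a larger share of cells in batch 2, so the OPC sets of the batches were chosen unequally. Without that condition 20 of the 29 were lower, 0 were higher and the median was -0.77. That wider set gained 208 and 304 cells with Aqp4 in batch 2 against 75 and 107 in batch 1. Its make-up thus also differed by batch, and the part of the selection in the lower identity genes was not tested. The growth factor feedback inhibitor genes Spry1, Spry4 and Dusp6 were called lower too, with Spry1 at 292 and 205 CPM in batch 1 and 66.0 and 78.2 CPM in batch 2. In that PDGF and FGF list 4 of 20 were lower (20.0%, against 2.75% of all genes), Fgfr3 was higher and the median was -0.08. The remaining gene of the 4 was Pdgfra, which the rule itself used, and Cspg4 of the rule was also among the 20. The Notch target genes Hes1 and Nrarp were also lower in batch 2, 2 of 20 Notch genes (10.0%, median -0.03). Of 42 lineage factors 7 were lower (16.7%), Sox8 and Nkx2-2 among them. Another 3, Sox11, Zeb2 and Nfix, were higher (7.14%, against 5.2% of all genes), and the median was -0.07.

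Markers of other cells moved the other way between the batches. Of 15 neuron markers 11 were called higher in batch 2 (73.3%), and of 11 astrocyte markers 8 (72.7%). Reln, the secreted protein of superficial neurons, was at 14.3 and 35.4 CPM in batch 1 and 357 and 266 CPM in batch 2, counted in 19 to 24 OPCs of each library. The summed level of the 15 neuron markers given above was higher in both libraries of batch 2, and was 3584 to 4826 CPM in the other cells. At least 3 of 7 neuron markers were counted in 23.8%, 86.8%, 36.7% and 60.4% of the OPCs. In cells thinned to 2000 counts these shares were 7.66%, 29.7%, 10.7% and 24.6%, and in thinned astrocytes 9.81%, 33.1%, 16.5% and 21.9%. Of the dissociation genes 8 of 11 were lower in batch 2 (72.7%, against 2.75% of all genes). Control 1 weighed most in this, with a summed 2283 CPM against 820 CPM in cKO 1 and 401 and 536 CPM in batch 2. Of the mitochondrial genes 9 of 12 were higher in batch 2 (75.0%, against 5.2% of all genes). The part of neuronal and astrocytic RNA in the lower level of the identity genes was not tested. Day, tissue and library preparation and sequencing pool all went with batch and cannot be told apart.

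**Figure D5:**
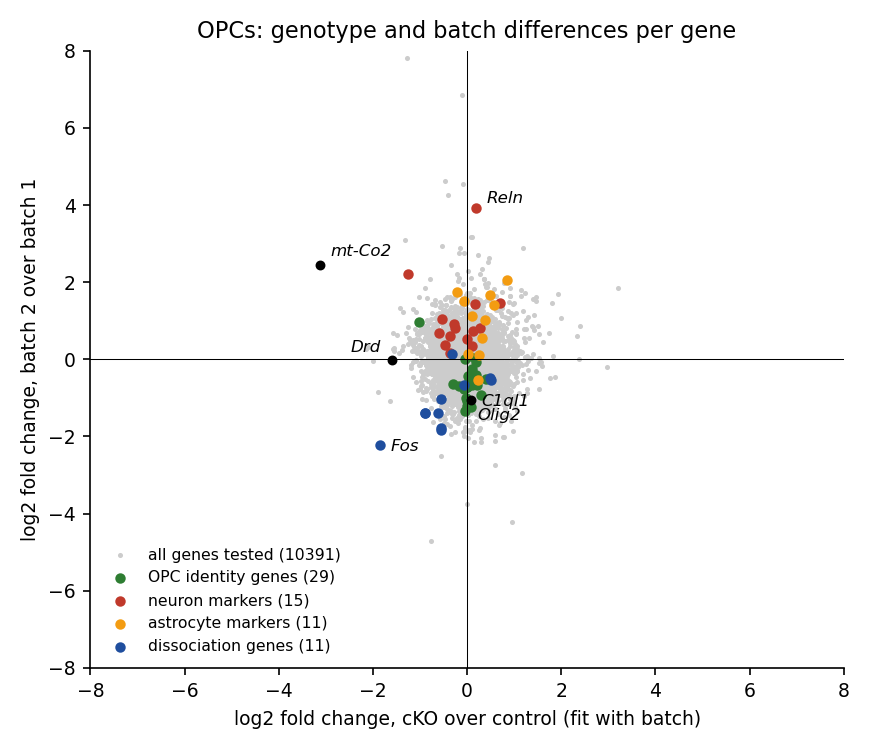
Log2 fold change of cKO over control (x axis) and of batch 2 over batch 1 (y axis) in OPCs, from 1 fit with both terms, for all 10391 genes tested (grey), with 4 gene lists in colour and named genes in italics. OPC identity genes (green) lie below 0 on the batch axis, with a median of -0.57, and near 0 on the genotype axis, while most neuron (red) and astrocyte (orange) markers lie above 0 on the batch axis.

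The genotype effect in OPCs was tested against that in 3032 astrocytes of the same libraries, taken as cells with Aqp4 and at least 2 of Gja1, Slc1a3, Slc1a2 and Aldoc and without Pdgfra, Sox10, Top2a, Mki67 and Mog. Of 12636 genes 2 differed (0.0158%), Hbb-bs and Hbb-bt, haemoglobin genes of red blood cells. Hbb-bs was at 0, 42.8, 7.58 and 8.15 CPM in OPCs and 0.684, 884, 9.76 and 10.3 CPM in astrocytes, so that control 2 was the highest library in both cell types and its astrocytes were the highest of all. If counts are taken as independent, the count of 0 in control 1 OPCs allows up to 1.43 CPM (3 counts). Sfxn1 fell short of the threshold, with a log2 difference of 0.49 (SE 0.17, unadjusted p = 0.0135, edgeR adjusted p = 1.00), and its fold change in astrocytes was -1.30. For Foxp2 the difference was 0.58 (SE 0.31, edgeR adjusted p = 1.00), with -0.87 in astrocytes.

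The same rule was applied to the golli-τ-eGFP sort, from P7 mice of the same 2 genotypes with that transgene in place of Drd1a-tdTomato. There 468 of 11382 cells met it, 35 and 57 of control and 316 and 60 of cKO, or 0.887%, 1.86%, 21.9% and 2.05% of the cells. The share in cKO 1 stood apart from the other 3, and that library also held fewer and deeper cells than they did. Pdgfra was at 1635, 2238, 2183 and 1703 CPM in these cells and Olig1 at 2600, 2280, 3495 and 2867 CPM, from a table counted separately. Neuronal Stmn2 was at 298 to 558 CPM there, against 916 to 1860 CPM in the tdTomato-sorted OPCs. None of 4932 genes was called between the genotypes (0% by edgeR, 0 by DESeq2, 109 with an unadjusted p under 0.05). Dividing cells made up 7.89% (3 of 38) and 6.56% (4 of 61) for control against 14.8% (55 of 371) and 15.5% (11 of 71) for cKO. Their exact 95% intervals of 1.66% to 21.4%, 1.82% to 15.9%, 11.4% to 18.9% and 8.0% to 26% overlapped, while the values did not, at the smallest p that the exact permutation test allows (0.33). In the tdTomato sort the groups overlapped in that share, and the difference between the sorts was not tested.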

How the data were processed

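Per the labels' protocols, cells went through the 10x Genomics Chromium Single Cell 3′ kit (v2), and each batch was pooled for a NextSeq 500 run. The submitters' processing notes name bcl2fastq 2.17.1.14, Cell Ranger 2.1.1, FastQC 0.11.5, UMI-tools 0.5.4, STAR 2.5.2b, featureCounts of Subread 1.6.2, SAMtools 1.6 and the builds mm10 and GRCm38.p6. The authors deposited whole-number counts per gene and cell, 17836 genes in the tdTomato table. They also deposited per-cell totals, which equalled the column sums, and a fraction of mitochondrial counts per cell, which was recomputed as a percent. The tables cover the cells the authors kept, and filters behind them are not given in the sources used here.

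Library and group came from the labels and the deposited cell table. Counts were summed over the OPCs of each library, since cells are not replicates, and CPM are deposited counts over that sum. edgeR 4.0.16 (R 4.3.3; TMM, default low-count filter, quasi-likelihood test, Benjamini-Hochberg over all genes tested, threshold 0.05) compared 2 cKO with 2 control libraries without a block. Standard errors are the log2 fold change over the root of the F statistic. The alternatives were the replicate block, DESeq2 1.42.0, other size factors, no filter, each library left out, at least 3 markers, cells thinned to 2000 or 1000 counts, and sets without high doublet scores, without cells with 3 of 7 neuron markers and, chosen after seeing the data, without the condition on Aqp4 (also for the batch comparison). The batch numbers come from the labels, which give a shared preparation day, and same-numbered libraries deviated together (correlation 0.371 over 10391 genes). Scrublet scoring in scanpy 1.11.5 marked 0 to 6 cells a library by its own threshold and so did not work here. All cells were kept, and one alternative dropped the top-scoring 0.8% of cells for each 1000 in a library. Fits were tested on simulated data.

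The members and lists were chosen with earlier results of these data known. Genes were named by a rule: Foxp2, Drd, Emx1 and Sfxn1, the genes of the rule, the 10 smallest p, genes called with the block, the 6 most abundant of each list and members with an unadjusted p under 0.05, the 15 most OPC-enriched genes, and the first 5 of the batch and astrocyte comparisons. Not every gene that this naming rule covers is named in the text. Members of a list on 1 side of both controls were named after their values were seen. The lists of MHC and interferon genes (6 tested, 0 on 1 side of both controls) and of Foxp factors and D1 signalling (12 tested, 1 higher and 3 lower, Drd, Ppp1r1b and Sfxn1) are given here for completeness.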

Additional observations from a re-analysis of the deposited data

Results flagged for a closer look

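In OPCs the haemoglobin genes Hbb-bs and Hbb-bt differed from astrocytes in their genotype effect, by the interaction test over 12636 genes. For Hbb-bs the cKO effect in OPCs minus that in astrocytes was 3.92 on the log2 scale (SE 0.39, edgeR adjusted p = 0.00729), and for Hbb-bt it was 6.45 (SE 0.78, edgeR adjusted p = 0.0480). These near-identical genes can share reads. OPCs of control 1 had no count of either gene, so both fitted values depend on the prior count and are no bound. Hbb-bt was at 5.58 CPM in control 2 OPCs and 289 CPM in control 2 astrocytes, and at 0 to 3.79 CPM in the OPCs and astrocytes of the other 3 libraries. Without control 2 neither gene passed, with 4.20 for Hbb-bs (adjusted p = 0.856) and 0.73 for Hbb-bt, and without cKO 1 Hbb-bt did not pass at 6.12.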

How the results depend on the processing

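The count of genes called between cKO and control OPCs was 0 by edgeR. It was 16 with the replicate block, 1 with DESeq2, 15 with no filter on low counts, and 9 to 37 with 1 library left out, where the lone library is assumed to vary like the others. It stayed at 0 with DESeq2 size factors, at least 3 markers, thinned cells, no high doublet scores, no cells with neuron markers (which leaves 12 OPCs in control 2), and no condition on Aqp4. Of the 15 genes called without a filter, 7 were among the 16. Drd had a log2 fold change of -1.60 with the replicate block (adjusted p = 0.0022), -1.62 with no filter (adjusted p = 0.0171) and -2.03 to -1.37 with 1 library left out, of which only the fit without control 1 passed (-1.78, adjusted p = 0.0134). Foxp2 ranged from -0.47 to 0.061 with 1 library left out, the upper end being the value without control 2, was -0.64 in thinned cells and -0.51 without the condition on Aqp4, and was 0.19 without cells with neuron markers, where control 2 rests on those 12 OPCs. The block changed the call of no other gene or count than those given with it. The batch count of 826 was 174 with DESeq2 and 1524 without the condition on Aqp4. The comparison with astrocytes gave 37 genes with no filter and 3 to 137 with 1 library left out, against 2. Golli-τ-eGFP OPCs gave 0 to 19 genes with 1 library left out. Differences in share ranged from -1.76 to 2.58 points for OPCs, -8.14 to 2.32 for dividing cells and -1.36 to 3.09 for cells with Enpp6 or Bmp4 with 1 library left out, and the last was 0 at 1000 counts a cell. The causes were not tested. With 1 library left out, Fos ranged from -3.26 to 0.61, Jun from -1.86 to 0.40, Npy from -0.35 to 2.70, Srpk1 from -0.14 to 1.74 and Olig2 from -0.73 to 0.81, with 0.11 for Olig2 without cKO 2. Committed precursors, 11 to 24 a library, were not fitted. For the single genes beside Foxp2 and Drd, 284 alternatives kept the call, 54 gained it, 3 lost it and 6 turned the sign. With 2 libraries a group and 91 to 261 OPCs in each, smaller changes may not have been detectable at this depth. In simulated counts with the same spread for every gene, the fit without the block recovered 12.2% of 2-fold and 87.0% of 4-fold changes. With batch differences simulated and the block fitted, it recovered 50.5% and 93.8%.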
